A study of Homo sapiens with 4 samples.

Results

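The ZNF genes encode zinc finger proteins, and those read well in vehicle-treated AGS cells were compared between cells given ornithogalum and cells given vehicle. AGS is an established human gastric carcinoma line. Members were chosen from array rows that the platform annotation maps to exactly 1 symbol starting with ZNF and a number. Letters after the number were allowed. A gene was kept when the mean log2 expression value over the 2 vehicle arrays was 5.5 or more, and its brightest row stood for it. By this rule 132 of 494 ZNF genes were members, among 18418 genes with 1 symbol in the whole table. RefSeq lists 131 of the members as protein coding and 1, ZNF37BP, as a transcribed pseudogene. The ZNF genes under the floor include the transcribed pseudogene ZNF252P and the long noncoding RNA gene ZNF407-AS1. Because the vehicle arrays chose the members, their vehicle level is a description and not a result.

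Cells were grown in a medium with serum and treated near confluence for 36 h, with 2 arrays for 0.01% ornithogalum, a homeopathic preparation, and 2 for ethanol as its vehicle. No genotype or transgene separates the groups. The labels call the arrays of a group biological replicates without saying whether they came from separate cultures, so a p-value here reflects only how far these samples spread, which may be technical. Expression was read on Affymetrix Human Gene 1.0 ST arrays as RMA log2 values. No depth applies to arrays, and their number limits the precision.

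Most ZNF proteins carry tandem C2H2 zinc fingers, small folds in which paired cysteines and histidines hold a zinc ion and which together read a stretch of DNA. Many also carry a KRAB domain, which recruits the scaffold protein TRIM28 and through it the histone methyltransferase SETDB1, HP1 proteins and deacetylase complexes that silence chromatin. Such KRAB proteins are best known for silencing transposable elements. Their genes multiplied by tandem duplication, and large clusters of them lie on human chromosome 19. Near-identical copies can share probe sequence, and whether the probes of a member also read a relative was not tested.

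Epithelial markers were bright, with KRT8 at a vehicle mean of 10.51 and EPCAM at 9.83, and all 6 listed passed 5.5. Of the 6, KRT19 fell 2.63-fold. Of 5 gastric markers measured, 1 passed the level of 5.5, TFF1 at 6.15, which fell 1.51-fold, and GKN1 was at 1.79, so most markers of gastric lineage were dim. The leukocyte marker PTPRC (1.51) and the endothelial marker PECAM1 (2.59) were dim, while CD68, a lysosomal protein of macrophages and other cells, stood at 6.66 and rose 2.26-fold. The part of these marker changes in the ZNF values was not tested. None of 5 fibroblast markers reached a mean of 5.5 in vehicle cells, but COL1A1 came close at 5.49. By limma's adjusted test 0 of the 5 passed (0 also at an unadjusted p under 0.05). Between the ornithogalum arrays the median gap over the members was 0.16 on the log2 scale, against 0.10 between the vehicle arrays. The gap was over 0.5 for 15 members between the ornithogalum arrays and for 0 between the vehicle arrays.

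Ornithogalum-treated cells had some ZNF transcripts lower and some higher, in nearly equal numbers. Of 132 members, 18 were higher, 22 were lower and 92 did not pass limma's test at an adjusted p of 0.05 (Benjamini-Hochberg over all 21214 tested clusters). These are 13.6% higher and 16.7% lower, or 30.3% in all. Among all tested clusters 19.2% were called, 6.57% higher and 12.6% lower. Among the 6319 genes that meet the same vehicle floor, 38.8% were called, 12.7% higher and 26.2% lower. Among the 6187 of these that are not ZNF genes 39.0% were called, 12.6% higher and 26.4% lower. The share of members called lower was thus below that of equally selected genes, and the share called higher was near it. No test of these shares was made. In bulk RNA, fewer cells of a kind and less RNA per cell cannot be told apart.

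The members' differences ran from -1.96 to 1.48 on the log2 scale, with a median of -0.03, against -0.14 over the 6187 other genes with the same floor. The sign of the members' median is not fixed: centring each array on its median moved it to 0.13, quantile normalization to 0.11 and cyclic loess to 0.067, and without ornithogalum replicate 1 it was 0.045. Centring also moved the median over all tested clusters from 0.035 to 0.20 and that of the other genes with the same floor to 0.022, so on both scales the members lay above the latter. After centring 30 members were higher (22.7%) and 17 lower (12.9%), 63.8% of calls being higher against 45% on the deposited values. The other genes with the same floor moved the same way, to 17.4% higher and 19.3% lower. Of their calls 47.4% were higher after centring, against 32.4% on the deposited values. The other scalings gave 27 members higher each, with 17 lower after quantile normalization and 21 after cyclic loess. Among the other genes quantile normalization gave 14.8% higher and 23% lower, and cyclic loess 14.9% and 25%. The ornithogalum arrays lay on the same side of the vehicle mean for 121 of 132 members, 61 above and 60 below. Among the other genes with the same floor they did so for 5490 of 6187, 2154 above and 3336 below. The groups did not overlap in 109 members, or 82.6%, against 82.0% of all genes with the same floor.

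The calls needed both vehicle arrays. Without vehicle replicate 1 limma called 0 members, and at an unadjusted p under 0.05 it had 20 above and 21 below vehicle. Without vehicle replicate 2 it called 0, with 17 above and 22 below at that p. In these fits a lone vehicle array is assumed to vary like the ornithogalum arrays. Without ornithogalum replicate 2, 20 members were higher and 33 lower.

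The deepest fall was in ZNF234, a gene of chromosome 19. Its log2 values after ornithogalum were 3.69 and 4.09, whereas with vehicle they were 5.85 and 5.84. Both treated arrays lay far below both vehicle arrays, a 3.88-fold fall (log2 difference -1.96, SE 0.17, limma adjusted p = 0.00406). ZNF717, on chromosome 3, had 4.23 and 3.68 after ornithogalum and 5.87 and 5.84 with vehicle, a fall of 3.72-fold. Its treated arrays were further apart than its vehicle arrays, as were those of ZNF234. ZNF780B, on chromosome 19, went from 5.84 and 5.71 with vehicle to 4.08 and 3.99, a 3.34-fold fall with the arrays of each group close together. ZNF362, on chromosome 1, had 4.73 and 5.06 against 6.53 and 6.55, a 3.14-fold fall.

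The next falls were in ZNF302, ZNF507 and ZNF585B, again on chromosome 19. ZNF302 read 4.47 and 4.49 after ornithogalum and 5.99 and 5.92 with vehicle, 2.78-fold lower. ZNF507 read 6.07 and 6.01 against 7.34 and 7.30, 2.43-fold lower, and ZNF585B 4.77 and 4.72 against 6.02 and 6.02, 2.42-fold lower. In all 3 the arrays of a group nearly coincided. ZNF280D on chromosome 15 fell 2.28-fold, ZNF251 on chromosome 8 fell 2.20-fold and ZNF670 on chromosome 1 fell 2.11-fold. Over these 10 genes, 5 of them on chromosome 19, the adjusted p lay between 0.00336 and 0.0114.

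The largest rise was in ZNF850, also on chromosome 19. It read 9.19 and 9.33 after ornithogalum and 7.70 and 7.86 with vehicle. Both treated arrays lay well above both vehicle arrays, a 2.79-fold rise (log2 difference 1.48, SE 0.13, limma adjusted p = 0.00408). ZNF280C, on the X chromosome, rose 2.67-fold, from 5.65 and 5.46 with vehicle to 6.95 on the first ornithogalum array and 0.048 more on the second. ZNF280C and its relative ZNF280D thus moved in opposite directions. ZNF217, whose product is a corepressor-binding factor amplified in breast and other cancers, read 8.32 and 8.47 against 7.07 and 7.03, 2.54-fold higher. The other 7 of the 10 largest rises were under 2-fold. Groups without overlap were a condition for a place among the 10 largest rises or falls, so this is no result.

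Of those 7, ZNF529 read 6.43 and 6.49 after ornithogalum and 5.55 and 5.54 with vehicle, 1.89-fold higher. ZNF121 read 7.86 and 7.83 against 6.99 and 6.88, 1.88-fold higher. The imprinted gene ZNF597 rose 1.85-fold and ZNF281, a factor that binds GC-rich promoters, 1.82-fold, from 5.88 and 5.87 to 6.75 and 6.73. ZNF134 rose 1.76-fold, from 6.58 and 6.59 to 7.33 and 7.47, and ZNF805 1.75-fold, from 6.21 and 6.20 to 6.88 and 7.15. ZNF326, part of a complex that couples elongation by RNA polymerase II to splicing, rose 1.73-fold. The adjusted p of the 10 largest rises lay between 0.00408 and 0.0265, and 5 of the 10 genes are on chromosome 19.

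**Figure D1:**
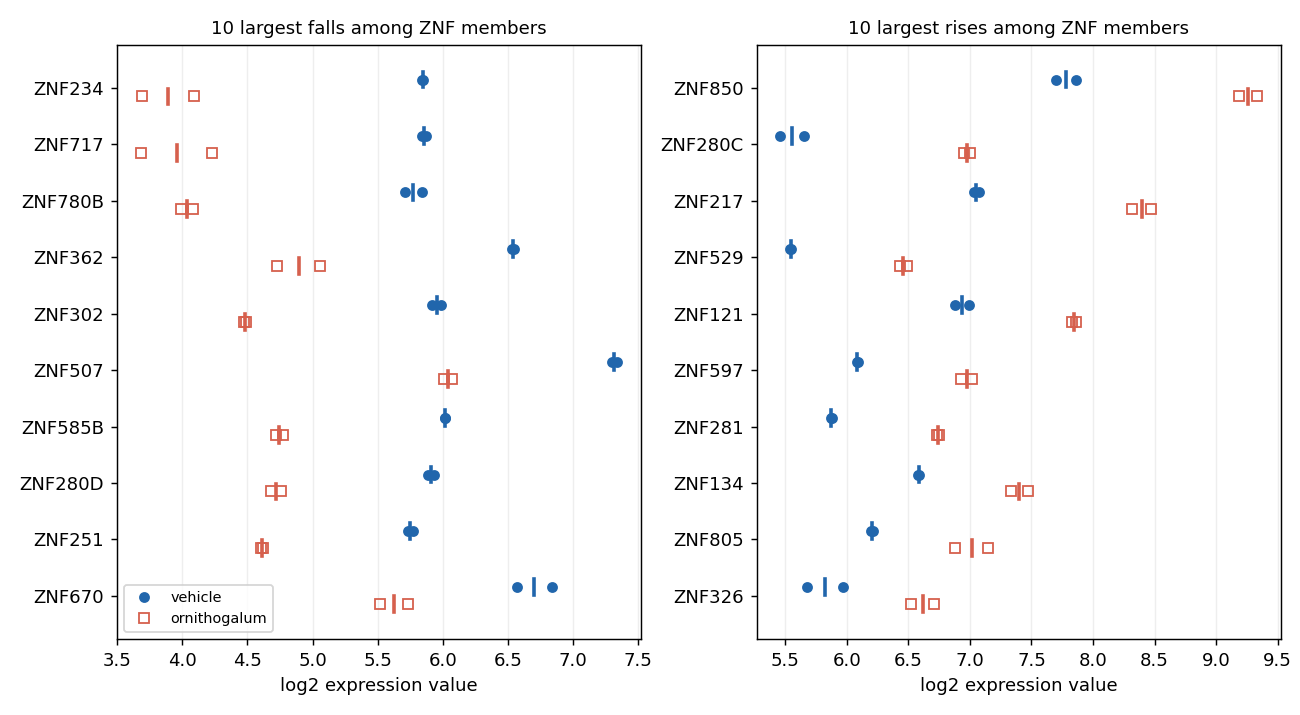
Log2 expression values of the 10 ZNF members with the largest falls (left) and the 10 with the largest rises (right) on each array, as blue circles for 2 vehicle arrays and red squares for 2 ornithogalum arrays, with bars at the group means. The 20 genes were taken only from called members whose groups do not overlap. ZNF234 (3.69 and 4.09 against 5.85 and 5.84) and ZNF850 (9.19 and 9.33 against 7.70 and 7.86) are the extremes.

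The remaining 20 called members changed by less. The 12 others that were lower fell by 1.48-fold to 2.06-fold, with adjusted p between 0.00558 and 0.0484. ZNF138 and ZNF652 had the largest of these falls, 2.06-fold each, and the vehicle values of ZNF138, at 5.67 and 5.65, and its treated values, at 4.60 and 4.63, lay close together. A second, dimmer array row for ZNF138 had a log2 difference of 0.39 (adjusted p = 0.111), opposite in sign to the row that represents it. ZNF277 fell 1.73-fold, and its second row, at 0.21, was also opposite in sign and did not pass (adjusted p = 0.388). The 8 others that were higher rose by 1.41-fold to 1.71-fold, with adjusted p between 0.0214 and 0.0495. They included ZNF473, which takes part in processing the 3′ ends of histone transcripts (1.57-fold), ZNF431 (1.71-fold), ZNF823 (1.66-fold), ZNF330 (1.55-fold) and ZNF460, among the brightest members (1.41-fold).

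The 92 members that did not pass had differences of at most 0.65 above vehicle and 2-fold below it, and in 23 of them the groups overlapped. Several with large differences had treated arrays far apart. ZNF774 read 4.14 and 4.97 on the ornithogalum arrays against 5.44 and 5.67 (adjusted p = 0.0766), and ZNF304 read 4.61 and 5.32 against 5.83 and 5.79 (adjusted p = 0.0773). ZNF587 read 5.37 on the first ornithogalum array and 6.32 on the second, with 6.42 and 6.53 on the vehicle arrays. For ZNF100 the ornithogalum arrays, at 5.20 and 6.14, lay on either side of the vehicle arrays, at 5.80 and 5.65. The pseudogene ZNF37BP read 5.30 and 4.52 against 5.46 and 5.67 (adjusted p = 0.174).

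Members with a described role were followed whatever their value. Of 26 such genes listed, 20 were members, and of these 3 rose, 1 fell and 16 did not pass, with a median log2 difference of 0.16 against -0.03 over all members. These 4 calls of 20 are a smaller share than the 30.3% of all members and the 38.8% of genes with the same floor. The 3 that rose were ZNF217, ZNF281 and ZNF326. ZNF384, a factor known from fusion genes in leukaemia, fell 1.51-fold, reading 6.29 and 6.53 against 6.94 and 7.08 (adjusted p = 0.0425), and this call was lost without ornithogalum replicate 1 and after median centring.

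Of the 16 that did not pass, ZNF207, which brings the checkpoint protein BUB3 to the mitotic spindle, had a log2 difference of 0.22, from 8.80 and 8.97 with vehicle to 9.19 and 9.01. ZNF24 came nearest to a call, at 5.98 and 6.22 against 5.66 and 5.60 (0.47, adjusted p = 0.0749). ZNF148, a binder of GC-rich promoter elements, read 6.44 and 6.42 against 6.68 and 6.65 (-0.23, adjusted p = 0.213). The oncogene ZNF703 had a difference of -0.33. ZNF644, a partner of the histone methyltransferases G9a and GLP, had 0.30, and ZNF410, an activator of CHD4, had 0.20.

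ZNF532, ZNF592 and ZNF687, which assemble into 1 chromatin complex, had differences of 0.071, 0.12 and 0.078. ZNF91 and ZNF93, which bind and silence retrotransposons, had 0.13 and 0.24, and neither passed (adjusted p = 0.538 and 0.363). ZNF274, which recruits SETDB1 to ZNF genes themselves, had 0.017 (SE 0.14), with treated arrays at 5.65 and 5.41 around vehicle arrays at 5.47 and 5.56. ZNF746, a repressor of PGC-1alpha removed by parkin, had -0.12, ZNF638 -0.24, ZNF131 0.28 and ZNF146 0.28. The SE in these 16 genes was from 0.11 to 0.21. The smallest change called among members was 1.41-fold, in ZNF460 with an SE of 0.12. Changes of about that size or smaller, and larger ones where the SE was larger, may have been missed in these genes.

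The difference varied with the vehicle level among members. Of the 65 members with a vehicle mean from 5.5 to 6, 6 were higher and 13 lower, with a median log2 difference of -0.20. The 1606 other genes in that range had a median of -0.17, with 10.4% called higher and 24% lower. Of the 38 members from 6 to 6.5, 5 were higher and 4 lower (median 0.054), against a median of -0.18 in 1407 other genes, of which 12.9% were higher and 29.1% lower. In the 29 members at 6.5 or more, 7 were higher and 5 lower, with a median of 0.28, against -0.10 in 3174 other genes, of which 13.7% were higher and 26.4% lower. As shares of the members these are 24.1% higher and 17.2% lower. Dim members thus resembled other genes of their level in their median, while bright members had a higher median than theirs. Across members Pearson's r between vehicle level and difference was 0.24 (n = 132), and across other genes 0.026 (n = 6187). Genes are not independent replicates, and level and difference share the vehicle arrays.

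**Figure D2:**
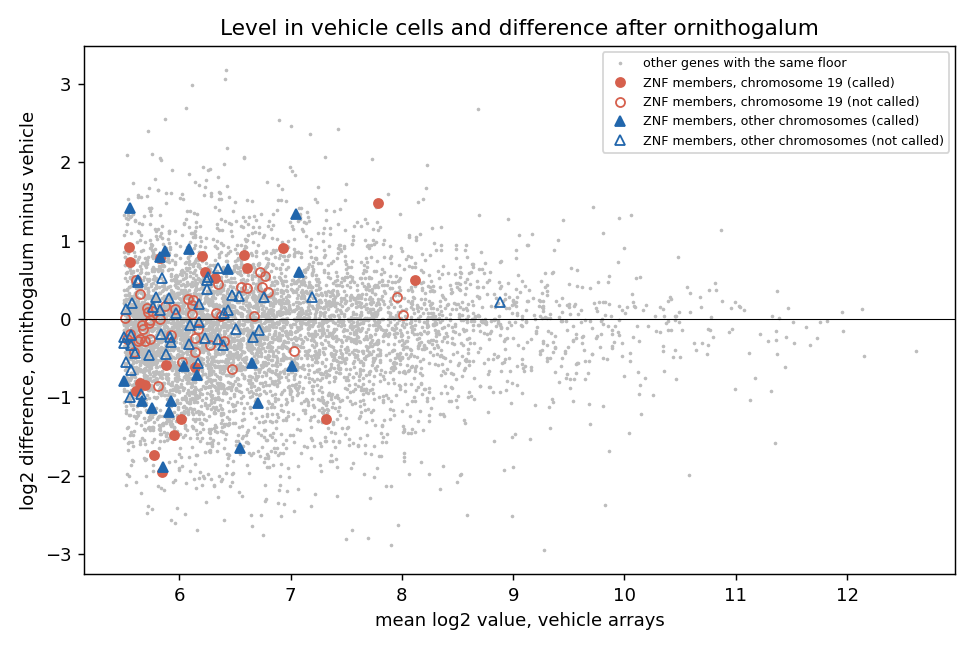
Log2 difference, ornithogalum minus vehicle, against the mean log2 value of the vehicle arrays, for ZNF members on chromosome 19 (red circles), on other chromosomes (blue triangles) and other genes with a vehicle mean of 5.5 or more (grey), with called members filled. The 29 members at 6.5 or more have a median of 0.28 and the 65 from 5.5 to 6 one of -0.20.

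The same vehicle arrays set both the floor and the difference, so the floor was also moved. When the floor of 5.5 was put on the ornithogalum arrays instead, 112 genes qualified, of which 32 were higher and 5 lower, with a median of 0.26. With the floor on the mean of all 4 arrays 27 of 115 were higher and 9 lower, with a median of 0.16. A floor on the ornithogalum arrays favours genes that read higher there. The share of other genes called under these 2 floors is not given here. These counts thus describe the selection and cannot be read as a trait of ZNF genes. The balance of calls among members therefore moves with the arrays that select them. In a setting chosen after seeing the data, the floor was put on 1 vehicle array and the difference taken against the other. With vehicle replicate 1 as selector, 135 genes had a median difference of 0.0077, against -0.14 in 6206 other genes, and both ornithogalum arrays lay above vehicle replicate 2 in 61 and below it in 60. With vehicle replicate 2 as selector, 131 genes had a median of -0.0024, against -0.13 in 6176 other genes, with 55 above and 55 below. Counts above and below are not given for the other genes in these settings.

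Just inside the floor lay ZNF277 (5.52 and 5.48 with vehicle, 4.56 and 4.86 after ornithogalum), ZNF124 (5.59 and 5.41, then 5.20 and 5.33) and ZNF692 (vehicle arrays at the floor and at 5.51, then 5.12 and 5.27). Just outside lay ZNF296 (5.57 and 5.42, then 5.46 and 5.60), ZNF785 (5.41 and 5.59, then 5.26 and 5.58) and ZNF704 (5.54 and 5.44, then 5.42 and 5.77). In all 3 inside both ornithogalum arrays lay below both vehicle arrays, but only ZNF277 passed the test (adjusted p = 0.0216, against 0.275 for ZNF124 and 0.144 for ZNF692). All 3 outside had overlapping groups. The groups did not overlap in 82.0% of all genes with the same floor. The vehicle values placed these genes on either side of it, so the contrast between the sides is a description.

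Of the 362 ZNF genes under the floor, 19 were higher and 40 lower, 16.3% in all, against 9.9% of 11737 other genes under it. The ZNF genes among these were brighter with vehicle, with a median level of 4.14 against 3.80. ZNF654 rose most, from 4.68 and 4.46 to 6.20 and 6.35, 3.26-fold. ZNF143, an activator bound at many promoters and chromatin loop anchors, rose 2.65-fold, from 5.02 and 5.06 to 6.54 and 6.36 (adjusted p = 0.00418). ZNF430 (2.33-fold), ZNF503 (2.21-fold) and ZNF263 (2.13-fold) followed. These 5 have a mean above 5.5 after ornithogalum and are left out by a floor on the vehicle arrays. The largest falls were in ZNF33A (4.41-fold, with treated arrays at 2.39 and 3.72), ZNF607 (3.65-fold), ZNF792 and ZNF174 (2.78-fold each) and ZNF514 (2.61-fold).

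Members of chromosome 19 were set against those of other chromosomes, since the largest ZNF clusters lie there. Chromosome 19 held 67 members and 19 other chromosomes held 65, and 28.3% of its 237 ZNF genes met the floor against 25.3% of 257 elsewhere. On chromosome 19, 11 members were higher and 10 lower, with a median log2 difference of 0.037. On other chromosomes 7 were higher and 12 lower, with a median of -0.14. The shares called were 31.3% and 29.2%. Among other genes with the same floor, 31.1% of 389 on chromosome 19 were called (8.74% higher and 22.4% lower) and 39.5% of 5794 elsewhere (12.9% and 26.6%), with medians of -0.13 and -0.14. Chromosome 19 members had a smaller share of lower calls, 14.9%, than the non-ZNF genes of that chromosome and a larger share of higher calls, 16.4%. The groups did not overlap in 51 members of chromosome 19 (76.1%, against 76.6% of its other genes) and in 58 elsewhere (89.2%, against 82.4%). The difference between the chromosome groups was not tested.

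The calls and medians by chromosome moved with the scaling. After median centring 17 members of chromosome 19 were higher (25.4%) and 7 lower (10.4%). Elsewhere 13 were higher (20%) and 10 lower (15.4%), so the balance elsewhere turned. Other genes with the same floor moved the same way. After centring 12.1% of those on chromosome 19 were higher and 13.6% lower, and elsewhere 17.7% and 19.7%. Quantile normalization gave 15 members higher and 7 lower on chromosome 19 and 12 and 10 elsewhere, and cyclic loess 15 and 8, and 12 and 13. Among the other genes quantile normalization gave 11.1% higher and 17.2% lower on chromosome 19, and 15% and 23.4% elsewhere. Cyclic loess gave them 11.1% and 19.5%, and 15.2% and 25.3%. Without ornithogalum replicate 1 the counts were 10 higher and 11 lower on chromosome 19 and 12 and 12 elsewhere. Without ornithogalum replicate 2 they were 12 and 15, and 8 and 18. After median centring the members' medians were 0.20 on chromosome 19 and 0.016 elsewhere. After quantile normalization they were 0.17 and 0.003, so the sign on other chromosomes turned. The medians of other genes were 0.032 and 0.02 after centring, and -0.045 and -0.06 after quantile normalization. The chromosome 19 median of the members stayed the higher of their pair under these scalings. With the floor on the ornithogalum arrays it was 0.24, below the 0.28 elsewhere, and with the floor on all 4 arrays 0.14 against 0.20, so the order turned there. With a floor of 5 the chromosome 19 median was -0.064. In both chromosome groups the median was higher at the higher vehicle level. From 5.5 to 6 the medians were -0.16 on chromosome 19 and -0.23 elsewhere, and at 6 or more 0.24 and 0.013. On chromosome 19 the calls went from 9.38% higher and 21.9% lower to 22.9% and 8.57%. Elsewhere they changed less, from 9.09% and 18.2% to 12.5% and 18.8%.

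**Figure D3:**
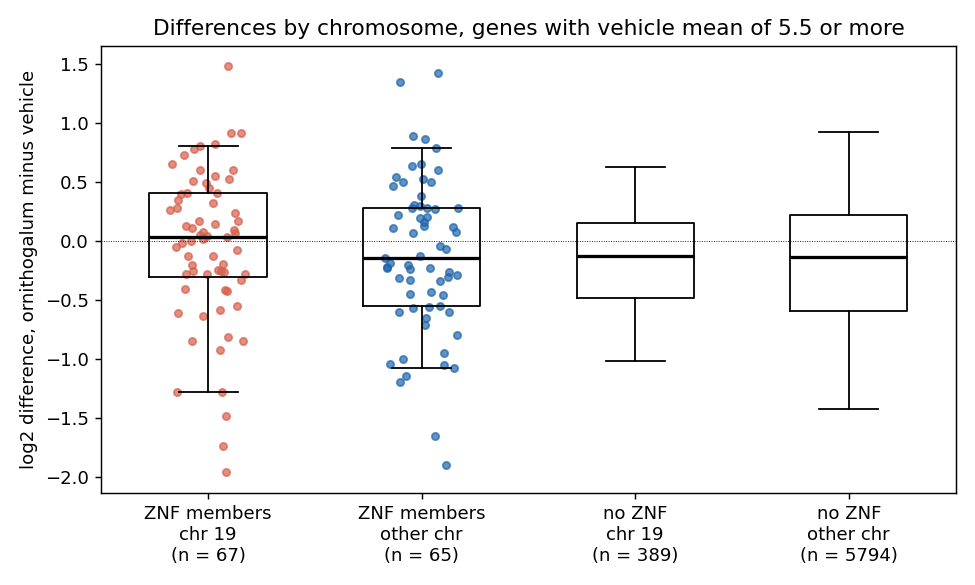
Log2 differences, ornithogalum minus vehicle, of ZNF members on chromosome 19 (n = 67) and on other chromosomes (n = 65), drawn as points, and of other genes with the same floor, with boxes from the lower to the upper quartile, a line at the median and whiskers from the 5th to the 95th percentile. The medians are 0.037 and -0.14 for members and -0.13 and -0.14 for other genes, and the boxes overlap widely.

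Away from chromosome 19, members were most numerous on chromosomes 7 and 1. Of 13 on chromosome 7, 0 were higher and 3 lower (ZNF138, ZNF277 and ZNF655) by limma's adjusted test, with a median of -0.26. At an unadjusted p under 0.05, 2 lay above vehicle and 5 below. The share called, 23.1%, is below the 39.5% of other genes off chromosome 19 with the same floor. Of 11 on chromosome 1, 2 were higher (ZNF281 and ZNF326) and 2 lower (ZNF362 and ZNF670), with a median of 0.078 and 36.4% called. The other chromosomes held 4 members or fewer each.

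Along chromosome 19 higher and lower genes were interleaved. The widest gap between neighbouring ZNF genes, at the centromere, splits the members into 22 on the short arm and 45 on the long arm. On the short arm 3 were higher and 2 lower, and on the long arm 8 were higher and 8 lower, or 22.7% and 35.6% called, against 31.1% of other genes of the chromosome. The 5 members of this chromosome that fell at least 2-fold, ZNF234, ZNF780B, ZNF302, ZNF507 and ZNF585B, all lie on the long arm, as does ZNF850. Among 65 pairs of consecutive members on 1 arm, both were higher in 3, both lower in 1 and opposite in 3, and the sign of the difference was shared in 35. The pairs that rose together were ZNF121 with ZNF823, ZNF529 with ZNF850 and ZNF805 with ZNF460, and the pair that fell together was ZNF507 with ZNF302. Of these only ZNF805 and ZNF460 had no coding gene between them. Between ZNF121 and ZNF823 lay 66 coding genes, between ZNF529 and ZNF850 3, and between ZNF507 and ZNF302 26. No test of the pair counts was made. ZNF850 (1.48) was followed by ZNF585B (-1.28), and ZNF468 (0.52) stood directly beside ZNF320 (-0.92). Of 22 pairs with no coding gene between them in RefSeq (GRCh38.p14), 1 rose together, 0 fell together and 1 had opposite calls, while 11 had no call on either side.

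**Figure D4:**
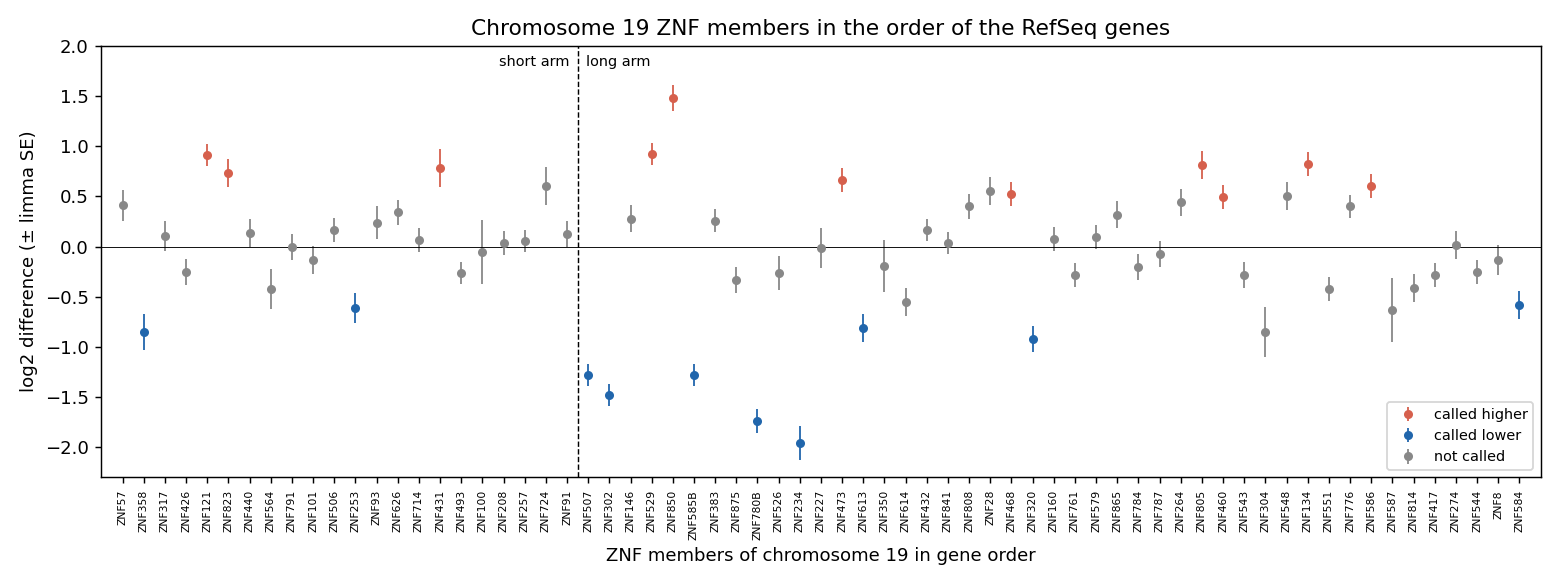
Log2 difference with limma's SE for the 67 ZNF members of chromosome 19 in gene order (evenly spaced, not to distance), with genes called higher in red, lower in blue and the others in grey, and a dashed line between the short and the long arm. Higher and lower genes lie among each other, as at ZNF850 (1.48) and ZNF585B (-1.28), and the 5 falls of at least 2-fold are on the long arm.

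The promoters of the most changed members are shown because some share a short element while the genes moved in opposite directions. RefSeq promoters (GRCh38.p14, 250 bases before to 50 after the gene start) were found for 117 of 132 members. The element searched on both strands was ACTACANTT, with any base at N. It is only a part of the longer site described for ZNF143, and a match to it is not a match to the whole site. ZNF850, the largest rise (chr19:36772758-36773057, minus strand), ZNF234, the largest fall (chr19:44141304-44141603, plus strand), and ZNF717, the next fall (chr3:75785500-75785799, minus strand), each held it. It stands in capitals, and reads as its reverse complement in ZNF234 and ZNF717.
ZNF850: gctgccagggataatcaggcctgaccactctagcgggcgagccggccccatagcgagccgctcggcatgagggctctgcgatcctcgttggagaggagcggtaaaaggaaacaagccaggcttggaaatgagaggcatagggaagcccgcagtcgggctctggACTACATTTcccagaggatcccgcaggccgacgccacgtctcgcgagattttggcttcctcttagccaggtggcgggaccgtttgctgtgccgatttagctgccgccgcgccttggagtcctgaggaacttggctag
ZNF234: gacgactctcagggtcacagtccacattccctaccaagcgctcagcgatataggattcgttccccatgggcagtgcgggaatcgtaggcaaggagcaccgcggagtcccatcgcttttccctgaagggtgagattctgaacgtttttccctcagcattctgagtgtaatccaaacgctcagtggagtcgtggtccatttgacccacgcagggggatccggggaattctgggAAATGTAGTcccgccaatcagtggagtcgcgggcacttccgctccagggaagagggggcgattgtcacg
ZNF717: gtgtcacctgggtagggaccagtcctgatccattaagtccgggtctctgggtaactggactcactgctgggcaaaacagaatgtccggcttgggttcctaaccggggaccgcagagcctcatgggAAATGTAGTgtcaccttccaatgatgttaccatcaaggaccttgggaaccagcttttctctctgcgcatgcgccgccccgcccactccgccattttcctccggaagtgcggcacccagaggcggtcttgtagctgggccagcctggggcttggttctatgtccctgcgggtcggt
The capitals begin 87 bases before the start in ZNF850, 19 before it in ZNF234 and 125 before it in ZNF717. The element was in 11 of 117 members (9.4%), against 1.88% of the 5102 promoters of other genes with the same floor and 1.48% of all 27305 promoters of the table. Among members it was in 2 of 17 called higher (ZNF850 and ZNF121), 4 of 20 called lower (ZNF234, ZNF717, ZNF277 and ZNF584) and 5 of 80 not called (ZNF146, ZNF317, ZNF354A, ZNF354B and ZNF451). Its length and open base were settled after longer forms had been searched here, and with A at N it was in 4 members (3.42%, against 0.686% and 0.37%). ZNF850 and ZNF234 share the element and changed in opposite directions. ZNF143 itself, under the floor with vehicle, rose 2.65-fold. Any link between ZNF143, the element and the changes of these genes was not tested.

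The cyclic AMP response element TGACGTCA, bound by CREB and ATF factors and its own reverse complement, was in 4 of 117 members (3.42%), against 3.8% of other genes with the same floor and 1.98% of all promoters. It was in 2 of 17 members called higher, 0 of 20 called lower and 2 of 80 not called. The 2 called higher are ZNF121 (chr19:9584455-9584754, minus strand) and ZNF330 (chr4:141220645-141220944, plus strand), shown with this element in capitals.
ZNF121: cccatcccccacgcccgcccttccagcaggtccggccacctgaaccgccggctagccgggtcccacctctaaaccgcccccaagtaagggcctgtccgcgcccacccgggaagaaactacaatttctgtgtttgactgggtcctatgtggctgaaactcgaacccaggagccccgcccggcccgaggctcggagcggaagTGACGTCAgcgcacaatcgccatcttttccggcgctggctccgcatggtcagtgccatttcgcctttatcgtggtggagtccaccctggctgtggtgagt
ZNF330: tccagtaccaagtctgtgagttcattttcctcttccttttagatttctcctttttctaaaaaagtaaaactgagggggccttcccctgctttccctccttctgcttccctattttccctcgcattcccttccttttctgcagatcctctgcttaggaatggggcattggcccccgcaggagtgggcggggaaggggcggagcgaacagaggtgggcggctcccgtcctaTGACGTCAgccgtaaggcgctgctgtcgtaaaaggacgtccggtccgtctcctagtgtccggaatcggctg
It begins 50 bases before the start in ZNF121, which rose 1.88-fold, and 21 bases before it in ZNF330, which rose 1.55-fold. The TATA sequence TATAAA was in 3 members (2.56%), 0 of them called, against 5.37% of other genes with the same floor and 12% of all promoters. ZNF121 also held ACTACANTT, 135 bases before its start and apart from the other element. A match is a description, not a bound site.

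Member promoters were poorer in CpG dinucleotides, the sites at which human DNA is methylated, than those of other genes. The median CpG count in the 300 bases was 21 in members, 28 in other genes with the same floor and 14 over all promoters. It was 21 in members called higher, 20 in those called lower and 21 in those not called, so it did not set them apart. ZNF850 had 23 and ZNF234 had 20. The median GC content was 62% in members and 66% in other genes with the same floor.

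Gene length and CpG count did not track the members' differences. Across members Pearson's r with the log10 of gene length was -0.067 (n = 132), against -0.064 in other genes with the same floor. With the CpG count it was -0.016 (n = 117), against 0.067. These are correlations across genes, which are not independent replicates.

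Partners of KRAB repression were mostly lower or not called. Of 19 listed, all measured, 1 rose, 7 fell and 11 did not pass, with a median log2 difference of -0.40, against -0.14 over the 6319 genes with the vehicle floor, of which 38.8% were called (12.7% higher and 26.2% lower). All the partners but MPHOSPH8 meet that floor, and their 8 calls of 19 are a share near this background. Over 18418 genes of any level 19.9% were called (6.99% higher and 13.0% lower). TASOR, the scaffold of the HUSH silencing complex, fell most, from 5.99 and 5.51 with vehicle to 3.27 and 3.40, 5.34-fold (log2 difference -2.42, SE 0.19, limma adjusted p = 0.0036). CBX5, which encodes HP1 alpha, fell 4.22-fold, from 8.41 and 8.58 to 6.33 and 6.51. MORC2, an ATPase that works with HUSH, fell 3.25-fold, from 6.39 and 6.17 to 4.54 and 4.62. The treated and vehicle arrays of these 3 genes were far apart.

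The methyltransferase gene SETDB1 fell 1.76-fold, from 6.43 and 6.29 to 5.45 and 5.63. The remodeller genes CHD4 (1.54-fold) and SMARCAD1 (1.51-fold) and the deacetylase complex gene MTA2 (1.49-fold) also fell, but these 3 calls were lost after median centring, which left 4 lower. TRIM28 itself read 8.22 and 8.30 after ornithogalum and 8.28 and 8.31 with vehicle (-0.033, SE 0.11, adjusted p = 0.861), and its groups overlapped. The other HP1 genes CBX1 (-0.11) and CBX3 (-0.13) and the deacetylase genes HDAC1 (-0.28) and HDAC2 (0.013) did not pass. Among the other HUSH genes, MPHOSPH8 had -1.09 with treated arrays at 3.64 and 4.52 (adjusted p = 0.0761) and PPHLN1 -0.49 (adjusted p = 0.0533). DNMT1, the maintenance DNA methyltransferase gene, rose 1.42-fold, from 6.64 and 6.66 to 7.13 and 7.19, while its partner UHRF1 had -0.29 and did not pass. With all clusters of the table tested, 0 of the 19 rose and 4 fell, and without either vehicle array 0 passed.

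**Figure D5:**
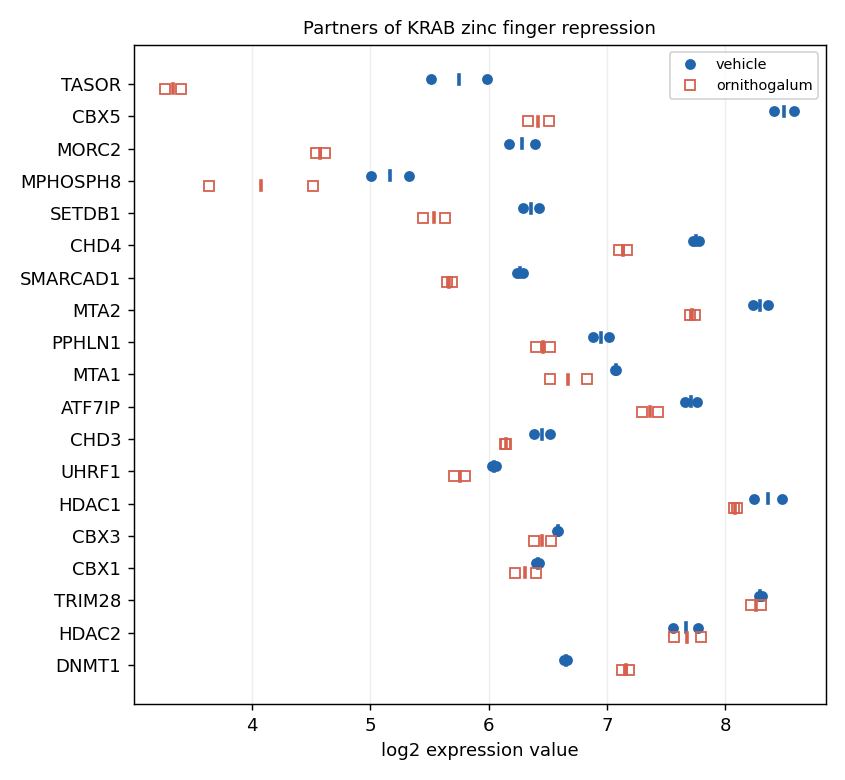
Log2 expression values of 19 partner genes of KRAB repression on 2 vehicle arrays (blue circles) and 2 ornithogalum arrays (red squares), with bars at the group means, sorted by difference. TASOR, CBX5 and MORC2 lie lowest relative to vehicle, TRIM28 (8.22 and 8.30 against 8.28 and 8.31) overlaps, and DNMT1 is higher.

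Other zinc finger families with the same floor were few. Of 19 ZFP, ZSCAN, ZKSCAN and ZBTB genes 4 were higher and 2 lower (31.6% called, against 38.8% of genes with the same floor), with a median of 0.018. They are too few to be set against the ZNF members.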

How the data were processed

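The deposited log2 expression values, 1 per array and transcript cluster (the probes of 1 locus), came from RMA in version 1.1 of Affymetrix Expression Console, as the submitters' processing notes record. Their settings are not stated in the sources used. Of 33297 clusters, the 21214 with at least 1 symbol in the 2016 platform annotation were fitted by limma (version 3.58.1, R 4.3.3, two-sided moderated test, Benjamini-Hochberg, threshold 0.05), using all 4 arrays and no covariate. "Higher", "rose", "lower" and "fell" mean called by this fit. A fold is the antilog of a log2 difference. Chromosomes came from RefSeq (GRCh38.p14) by gene number. A further 41 ZNF clusters with several symbols were left out, and of 6 members with several rows the brightest row was used.

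The code of the fit was run on simulated data with known changes. These had an equal spread in both groups, unlike the arrays here, so the run checks the code and not the calls. The members and lists were chosen with earlier results of these data known. Genes named are the 10 largest falls and rises among called members with no overlap, the listed genes with a role, those next to the floor, the 5 largest called changes each way under it, and partners of KRAB repression. Others, such as members with wide treated arrays, neighbours and second rows, were named after their values were seen. Alternatives covered scaling, the variance prior, the clusters tested, the threshold, the floor, the row per gene and each array left out.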

Additional observations from a re-analysis of the deposited data

Results flagged for a closer look

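Among the 41 ZNF clusters with several symbols, which are outside the members, limma called 4, with 0 higher and 4 lower, in data that the comparisons do not use. The share called, 9.76%, is below the 19.2% of all tested clusters. All 4 are among the 16 of these clusters with a vehicle mean of 5.5 or more, a smaller share than the 38.8% of genes with that floor. No gene is named from them.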

How the results depend on the processing

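The counts of ZNF members called, 18 higher and 22 lower, moved with both the spread estimate and the selection. Leaving out 1 array gave 0 to 22 higher, 0 to 33 lower, a median from -0.043 to 0.045, and 0 to 7058 calls over all tested clusters (4076 with every array); each fit without a vehicle array gave 0. On chromosome 19 these fits gave 0 to 15 lower and a median from 0.016 to 0.067, and elsewhere 0 to 18 lower and a median from -0.24 to -0.079. Without moderation of the variances limma called 0 members higher and 0 lower (24 and 22 at an unadjusted p under 0.05), 0 lower in each chromosome group, and 1 cluster in all. Testing all 33297 clusters gave 8 higher and 12 lower, 6 of the latter on chromosome 19 and 6 elsewhere, with 2644 calls in all. An adjusted p under 0.01 gave 7 higher and 10 lower, 5 and 5 by chromosome group, with 1443 calls in all, and one under 0.1 gave 29 higher. An intensity trend, alone or with a robust prior, gave 30 higher, and testing only clusters of mean 5 or more gave 32 higher and 21 lower on other chromosomes.

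Median centring gave 30 higher, with medians of 0.13 for all members, 0.20 on chromosome 19 and 0.016 elsewhere. Quantile normalization gave medians of 0.11, 0.17 and 0.003, and cyclic loess 0.067 overall and 0.12 on chromosome 19. A vehicle floor of 5 gave 28 higher and 38 lower (16 on chromosome 19, 22 elsewhere) and medians of -0.11 and, on chromosome 19, -0.064. A floor of 6 gave 9 lower (3 and 6) and medians of 0.12, 0.24 and 0.013. No floor gave 37 higher and 62 lower (28 and 34). The floor on the ornithogalum arrays gave 32 higher and 5 lower (2 and 3) with medians of 0.26, 0.24 and 0.28, and on all 4 arrays 9 lower (3 and 6) with medians of 0.16, 0.14 and 0.20. With the floor on 1 vehicle array and the fit on the other, a setting chosen after seeing the data, 0 were higher and 0 lower. Other alternatives kept these values within 1.5 times or 1 SD.

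Of 40 called members 0 changed sign in those of 14 settings that tested them. In the 11 settings that kept both vehicle arrays and the moderation, 20 members (8 higher, 12 lower) were called wherever they were tested. The setting that tested only brighter clusters left out ZNF234, ZNF717 and ZNF780B, which are among the 12 lower, so it says nothing about their calls. Uncalled genes near 0 changed sign. TRIM28 had from -0.073 to 0.0061 with 1 array left out and 0.13 after centring, and ZNF746 had 0.035 after centring. ZNF274 had -0.10 without ornithogalum replicate 1 and -0.03 without vehicle replicate 1, and ZNF592 had -0.00025 without ornithogalum replicate 2.

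Replicate numbers did not pair the arrays (correlation of same-numbered deviations -0.0585 over 21214 clusters). With the replicate number as a block 12 members were higher and 19 lower, and 3302 clusters were called in all. Signal near background was not measured separately, so dim genes were not judged by detection.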
